A study of Mus musculus with 2 samples.

Results

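The core genes of the circadian clock are described here in poly(A) RNA of mouse small intestine. The 10 genes, Arntl, Clock, Nr1d1, Nr1d2, Per1, Per2, Per3, Cry1, Cry2 and Dbp, were chosen by name. The choice was made with earlier results of these data known. All 10 were found by Ensembl identifier among the 43346 Ensembl genes measured. The tissue came from 1 adult female C57BL/6J mouse aged 10 weeks, with no treatment or altered gene in the labels. The study holds 2 technical libraries of this 1 animal, called the first and the second library after their technical replicate numbers. The second was made in 2015, no year is given here for the first, and no condition was compared. The hour of day at which tissue was taken, and whether both libraries came from 1 RNA extraction, are unstated in the labels used here. Paired values give the first library before the second. Both are technical (n = 2), so none describes the spread between mice.

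The clock is a loop of transcription that runs through roughly a day in nearly every cell. CLOCK and ARNTL (also called BMAL1) pair on E-box sequences and switch on the Per and Cry genes, whose proteins return to the nucleus and block the pair. A second loop runs through the nuclear receptors REV-ERB alpha and beta, made from Nr1d1 and Nr1d2, which repress Arntl at sites where the ROR receptors activate it. Dbp is switched on by the CLOCK and ARNTL pair and acts on D-box sequences of output genes. In the intestine the clock is known to time nutrient uptake, motility and cell division.

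Related clock genes code for like proteins with different bases, and the difference between the libraries moved with the GC content of a gene, as described further on. For this reason 3 pairs of coding stretches are shown, each of 30 codons within 1 exon, at the place where the aligned proteins of a pair share most residues. Bases run 5′ to 3′ along the coding strand on mm10, from the GENCODE M21 transcripts, and every G or C is in capitals. The first pair lies in exon 4 of 8 of Nr1d1, at chr11:98771210-98771299 on the minus strand, and in exon 4 of 8 of Nr1d2, at chr14:18216660-18216749 on the minus strand.
Nr1d1: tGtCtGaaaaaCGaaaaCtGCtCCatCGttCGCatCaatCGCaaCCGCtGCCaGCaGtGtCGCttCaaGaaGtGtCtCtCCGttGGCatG
Nr1d2: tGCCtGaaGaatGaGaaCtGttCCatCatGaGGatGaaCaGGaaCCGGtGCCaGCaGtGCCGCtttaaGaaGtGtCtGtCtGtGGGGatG
The second pair lies in exon 6 of 13 of Cry1, at chr10:85146769-85146858 on the minus strand, and in exon 6 of 12 of Cry2, at chr2:92416187-92416276 on the minus strand.
Cry1: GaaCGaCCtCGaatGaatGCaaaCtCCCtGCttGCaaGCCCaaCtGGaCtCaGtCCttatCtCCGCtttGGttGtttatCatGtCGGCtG
Cry2: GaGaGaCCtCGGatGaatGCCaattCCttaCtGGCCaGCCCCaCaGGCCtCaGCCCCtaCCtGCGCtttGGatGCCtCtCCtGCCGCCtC
The third pair lies in exon 17 of 23 of Per1, at chr11:69104711-69104800 on the plus strand, and in exon 17 of 23 of Per2, at chr1:91429400-91429489 on the minus strand.
Per1: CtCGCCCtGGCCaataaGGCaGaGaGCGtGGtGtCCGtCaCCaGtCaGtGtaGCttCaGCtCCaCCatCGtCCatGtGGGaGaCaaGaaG
Per2: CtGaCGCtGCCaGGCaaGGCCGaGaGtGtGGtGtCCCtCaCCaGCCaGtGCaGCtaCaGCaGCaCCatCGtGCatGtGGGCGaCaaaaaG

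The Cry stretches encode the same 30 residues of 30 and share 66 of 90 bases. Of the 90 bases, 45 are G or C in Cry1 and 56 (62.2%) in Cry2. The Nr1d stretches share 28 of 30 residues and 70 of 90 bases, and both hold 51.1% G and C. Their whole coding sequences differ more, at 57.9% in Nr1d1 and 45.8% in Nr1d2. The Per stretches share 25 of 30 residues and 71 of 90 bases, with 57.8% in Per1 and 61.1% in Per2. Over their whole coding sequences that order turns, to 60.5% in Per1 and 58.1% in Per2. The deposited posterior standard deviation of the count, which covers reads shared with other genes, was 0 for 10 of 10 clock genes in both libraries.

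The libraries held 28277875 and 24509862 expected counts, the deposited estimates of reads or fragments per gene. Mitochondrial genes and their nuclear copies took 72.3% and 21.6% of all TPM (a level corrected for length and scaled to the same sum in each library). A TPM value therefore moves with that share. For the 10 clock genes, TPM rescaled without those genes is given where it changes the order of the libraries. Marker sums are on TPM of all genes only, so their order between the libraries may also turn with that share. Enterocyte markers summed to 6125 and 10600 TPM, with 5 of 6 reaching 1 TPM in each library (Cdx1 stood at 0.24 and 59.98 TPM). Goblet markers summed to 240 and 8938 TPM, smooth muscle markers to 21.6 and 478 TPM, and pancreatic acinar markers to 585 and 5153 TPM. Paneth markers summed to 816 and 2240 TPM, leukocyte markers to 23.4 and 35.2, endothelial to 2.57 and 20.7, enteric neuron to 1.53 and 9.75 and hepatocyte markers to 1.40 and 2.97. Sis (2598 and 1226 TPM), Ptprc (22.2 and 19.1), Elavl4 (1.32 and 0.99) and Alb (0.67 and 0.34) went against these sums. They belong to the enterocyte, leukocyte, enteric neuron and hepatocyte lists in turn. All other markers were higher in the second library on this scale. The part of this cell mixture in the clock gene values was not tested, and in bulk tissue fewer cells of a type and less RNA per cell cannot be told apart.

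Of the 10 clock genes, 6 reached 1 TPM in the first library and 10 in the second. The 6 genes at that level in both were Arntl, Clock, Nr1d2, Per2, Cry1 and Dbp. On TPM rescaled without mitochondrial genes, 8 of 10 reached 1 TPM in both. The summed counts of all 10 genes were 10308 and 9996, and they fell on different genes. Clock and Nr1d2 together held 75.8% of the summed clock gene TPM in the first library, and Nr1d1 alone held 42.5% in the second.

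**Figure D1:**
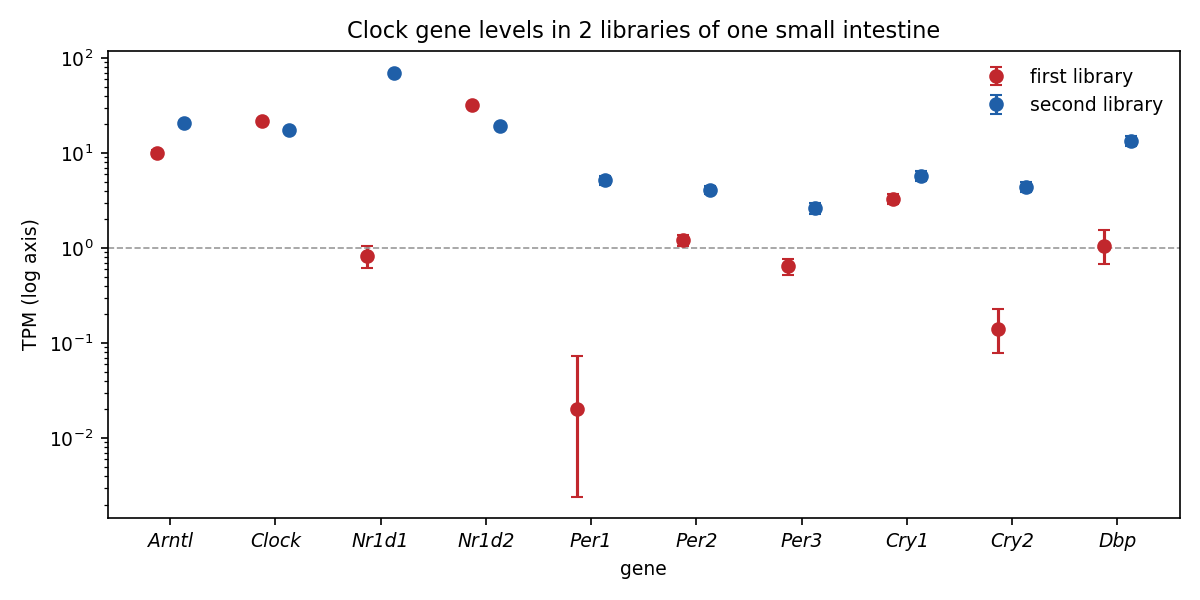
TPM of the 10 clock genes on a log axis in the first and the second library, with exact Poisson 95% intervals that cover counting error only. Nr1d1 runs from 0.82 to 68.7 TPM and Per1 from 0.02 to 5.15 TPM, and Clock from 21.6 to 17.6 TPM on this scale, against 78.0 and 22.5 TPM without mitochondrial genes.

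Each library pair of counts was compared with a two-sided exact binomial test with TMM-scaled library sizes. A gene was called different at a Benjamini-Hochberg adjusted p under 0.05 over all genes and a difference of 2-fold or more. Across all 15188 genes tested, 39.2% were called higher in the second library and 29.2% higher in the first. Of the 10 clock genes, 4 were called higher in the second library (Nr1d1, Per1, Cry2 and Dbp) and 2 higher in the first (Clock and Nr1d2). The other 4 (Arntl, Per2, Per3 and Cry1) did not reach 2-fold, although 9 of 10 passed the test at any fold. Those counts, 4 and 2 of 10, lie near the background and say nothing particular to clock genes. Their median log2 ratio, second over first, was 0.35, beside 0.18 over all genes tested. No condition enters that test, and its error is that of counting alone.

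The activators had some of the highest levels among the 10 in both libraries. Clock, the DNA-binding partner of ARNTL, had 4657 and 2424 counts, or 21.6 and 17.6 TPM. It lies on chr5:76209868-76304792 on the minus strand. Its Poisson 95% intervals, 21.0 to 22.2 and 16.9 to 18.4 TPM, did not overlap. Scaled for library size, its log2 ratio was -1.66 (SE 0.036, 95% interval -1.73 to -1.59), a call higher in the first library. Without mitochondrial genes the levels stood further apart, at 78.0 and 22.5 TPM.

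Arntl, the activator whose loss stops the clock, lies on chr7:113207465-113314126 on the plus strand. It had 801 and 1056 counts, or 9.97 and 20.6 TPM. The order of the libraries turned with the scale: rescaled without mitochondrial genes, Arntl stood at 36.0 and 26.2 TPM. On scaled counts its log2 ratio was -0.32 (SE 0.068; adjusted p = 4.08e-06, exact binomial test), below the 2-fold limit. Of the 10 genes, Arntl and Per3 had the smallest log2 ratios in size.

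On TMM-scaled counts the REV-ERB genes went in opposite directions. Nr1d1, a repressor of Arntl, lies on chr11:98767932-98775333 on the minus strand and had 58 and 3045 counts. Its level was 0.82 TPM in the first library (95% interval 0.623 to 1.06) and 68.7 TPM in the second (66.3 to 71.2). It was the highest of the 10 in the second library and the seventh in the first. The scaled ratio was 31.7-fold (24.6 to 42.2), a log2 ratio of 4.99 (SE 0.19).

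Nr1d2, its relative with overlapping function, went the other way. It lies on chr14:18204054-18239127 on the minus strand and had 4166 and 1544 counts, or 32.0 and 19.2 TPM. The log2 ratio was -2.15 (SE 0.043, 95% interval -2.24 to -2.06), a 4.44-fold higher scaled count in the first library. The level of Nr1d1 was 0.0257 times that of Nr1d2 in the first library and 3.57 times in the second. The ratio between these genes thus differed by 139.2 times between libraries of the same animal, a log2 difference of 7.13. It came to 2.52 with the mean GC trend described further on removed. With the GC trend of the leading transcript removed, the log2 ratios lay closer still, at 1.185 for Nr1d1 and -0.415 for Nr1d2.

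The Period genes, which encode the repressors that gate the loop, were low in both libraries. Per1, whose RNA also responds quickly to light and hormones, lies on chr11:69095217-69109960 on the plus strand. It had 2 counts in the first library, below the limit of 3 counts that a count of 0 allows, and 401 in the second. Its levels were 0.02 and 5.15 TPM, and the scaled ratio was 97.7-fold with a counting interval from 33.5 to 1010. Per1 was the lowest of the 10 in the first library and was called higher in the second.

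Per2, a main repressor of the loop, lies on chr1:91415982-91459324 on the minus strand and had 201 and 439 counts, or 1.20 and 4.12 TPM. Its log2 ratio was 0.41 (SE 0.12; adjusted p = 0.00101, exact binomial test), below 2-fold. Per3, the least essential of the 3, lies on chr4:151003652-151044665 on the minus strand and had 107 and 217 counts, or 0.64 and 2.61 TPM. Its log2 ratio was 0.30 (SE 0.17, 95% interval -0.04 to 0.65; adjusted p = 0.0842, exact binomial test) and did not pass. Of the Period genes, Per1 alone was called different at 2-fold.

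The Cryptochromes, which bind and silence the activator pair, also split. Cry1 lies on chr10:85131700-85185064 on the minus strand and had 276 and 306 counts, or 3.30 and 5.73 TPM. As for Arntl, its order turned with the scale, to 11.9 and 7.31 TPM without mitochondrial genes. The log2 ratio on scaled counts was -0.57 (SE 0.12; adjusted p = 3.31e-06, exact binomial test), below 2-fold. Cry2 lies on chr2:92403646-92434043 on the minus strand and had 15 and 306 counts, or 0.14 and 4.39 TPM. Its scaled ratio was 12.0-fold (7.41 to 22.4), called higher in the second library. Cry2 stood at 0.0424 times Cry1 in the first library and 0.766 times in the second.

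Dbp, an activator of output genes through D-boxes, lies on chr7:45705088-45710203 on the plus strand. It had 25 and 258 counts, or 1.05 TPM (95% interval 0.68 to 1.55) and 13.4 TPM (11.8 to 15.1). The intervals did not overlap, and the scaled ratio was 6.17-fold (4.16 to 9.88), called higher in the second library.

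From highest to lowest TPM, the order in the first library was Nr1d2, Clock, Arntl, Cry1, Per2, Dbp, Nr1d1, Per3, Cry2 and Per1. Of its 9 neighbouring pairs, 3 had overlapping Poisson intervals: Per2 with Dbp, Dbp with Nr1d1, and Nr1d1 with Per3. In the second library it was Nr1d1, Arntl, Nr1d2, Clock, Dbp, Cry1, Per1, Cry2, Per2 and Per3. There 5 of 9 neighbouring pairs overlapped, from Arntl to Clock and from Cry1 to Per2. Of the 45 pairs of clock genes, 30 stood in the same order in both libraries and 15 in the opposite order. Spearman's rho between the libraries' TPM was 0.515 over the 10 genes, given as a description.

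GC content moved with these differences. The mean GC content over a gene's transcripts ran from 42.1% in Clock, 45.1% in Nr1d2 and 48.2% in Arntl to 56.4% in Nr1d1, 58.8% in Per1 and 61.6% in Dbp. Cry1 had 51.6%, Per3 52.3%, Cry2 52.6% and Per2 56.0%. Across the 10 genes, GC content and the log2 ratio had a Spearman rho of 0.879, beside 0.855 over 15121 tested nuclear genes. These are correlations across genes measured in the same 2 libraries, and genes are not independent replicates. What lies behind the relation was not tested.

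**Figure D2:**
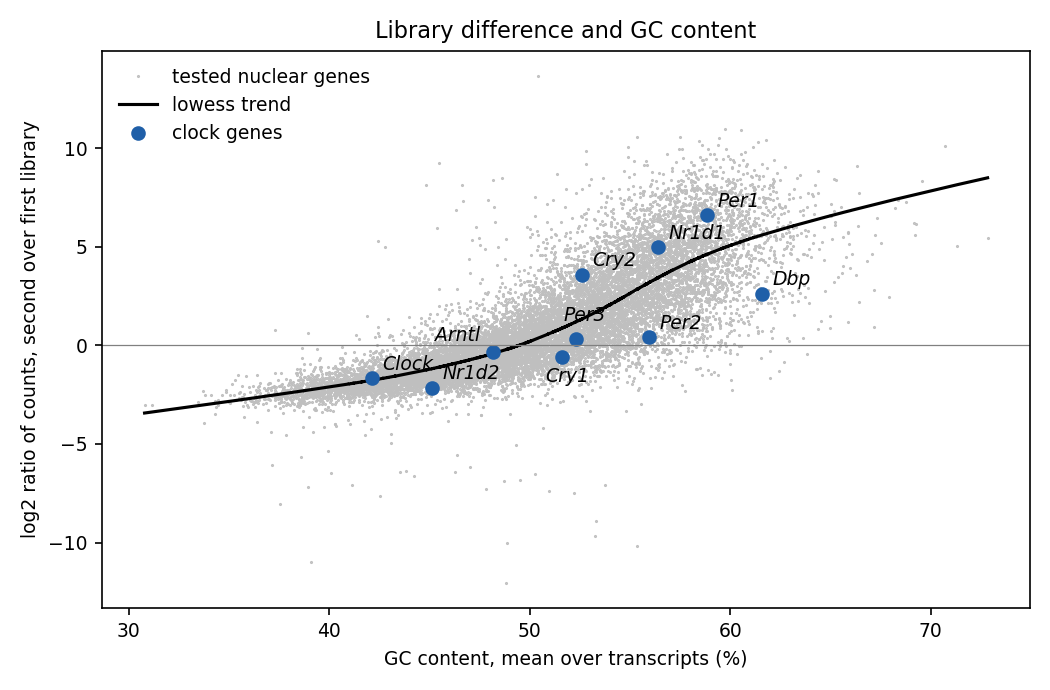
Log2 ratio of counts, second over first library, against mean GC content of a gene's transcripts for 15121 tested nuclear genes (grey), with the lowess trend (line) and the 10 clock genes (blue). Clock lies on the trend at the low end. Nr1d1, Per1 and Cry2 lie above it, and Dbp, Per2, Per3, Cry1 and Nr1d2 lie below it.

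With the GC trend removed, 17.5% of 15145 genes were called higher in the second library and 17.6% higher in the first. Of the clock genes, 3 were then called higher in the second library (Nr1d1, Per1 and Cry2), 3 higher in the first (Per2, Cry1 and Dbp) and 4 neither. With the GC content of each gene's leading transcript, an alternative chosen after the data were seen, the background was 14.9% and 13.6%. There Nr1d1 alone was called higher in the second library, and Per2, Per3, Cry1 and Dbp were called higher in the first. The median log2 ratio of the 10 was -0.40 with mean GC, beside -0.01 over all genes. Nr1d1 kept a log2 ratio of 1.56 and then 1.19. Per1 stood at 1.99 and 1.64 and Cry2 at 2.26 and 0.44. Clock, at 0.11 and 0.03, and Arntl, at 0.10 and -0.06, lay near the trend. Nr1d2, at -0.964 and -0.415, lost its call in both settings. Dbp turned from 2.62 to -2.97 and -3.11 and Per2 from 0.41 to -2.79 and -1.99. The GC value of Dbp rests on 1 of its 5 transcripts, Dbp-201, which had 0 counts in the first library.

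**Figure D3:**
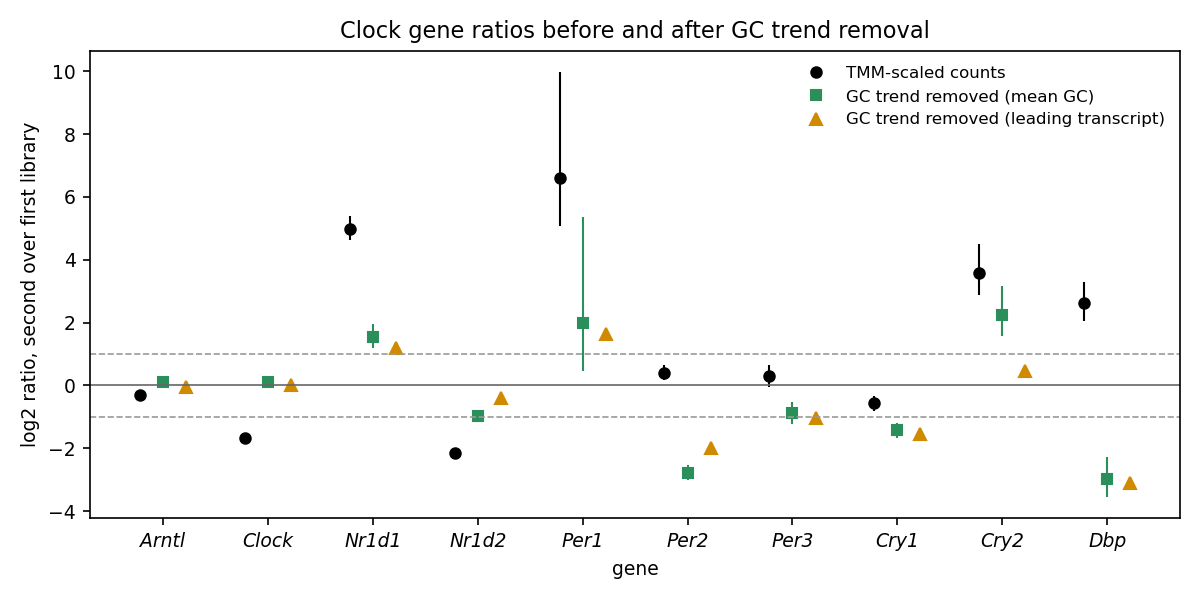
Log2 ratio, second over first library, of each clock gene on TMM-scaled counts (circles) and with the GC trend removed by mean GC (squares) or leading-transcript GC (triangles); bars are exact 95% intervals, drawn for circles and squares, and dashed lines mark 2-fold. Nr1d1 and Per1 lie above 1 in all 3, whereas Per2, Per3 and Dbp lie above 0 as circles and below it as squares and triangles. Per1 rests on 2 counts in the first library. The bar of its square runs from 0.448 to 5.36, and it was not called with leading-transcript GC.

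By TPM share, 8 of 10 clock genes had the same leading transcript in both libraries, and the exceptions were Per1 and Per3. By share of counts it was also 8, but the exceptions were Per1 and Dbp. Arntl, Clock and Cry1 each had 1 transcript in the tables, and Per2 was assigned to Per2-201 alone in both libraries. Nr1d1-201 held 92.7% and 90.2% of its gene's TPM, and Nr1d2-201 held 97.7% and 92.5%. The retained-intron transcript Nr1d2-202 held the rest, 2.32% and 7.50%. Cry2-201 held 87.5% and 94.7%, on 14 and 297 counts.

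Per3 had a different leading transcript by TPM share in each library, whereas by counts Per3-201 led in both. In the second library the deposited TPM intervals of Per3-201 (0.477 to 1.13) and Per3-204 (0.981 to 1.96) overlapped. The lead there is therefore not settled. The coding transcript Per3-201 held 86.6% in the first library and 35.7% in the second. Its estimated counts were close, 95.7 and 102.02. The processed transcript Per3-204, which has no annotated coding sequence, went from 1.81 to 94.4 estimated counts and from 2.75% to 55.1% of the gene's TPM. Per1 was led by Per1-203 on 2 counts in the first library and by Per1-206, at 69.8%, in the second. The deposited interval of Per1-206 in the second library, 1.01 to 3.37 TPM, overlapped that of Per1-202, 0.92 to 1.84. For Dbp, Dbp-201 had 0 counts in the first library and 116.4, or 28.7% of TPM, in the second. The rest of Dbp lay on shorter transcripts that the reference used here does not hold. Isoform shares are estimates, and the posterior standard deviation of 0 per gene says nothing of them.

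**Figure D4:**
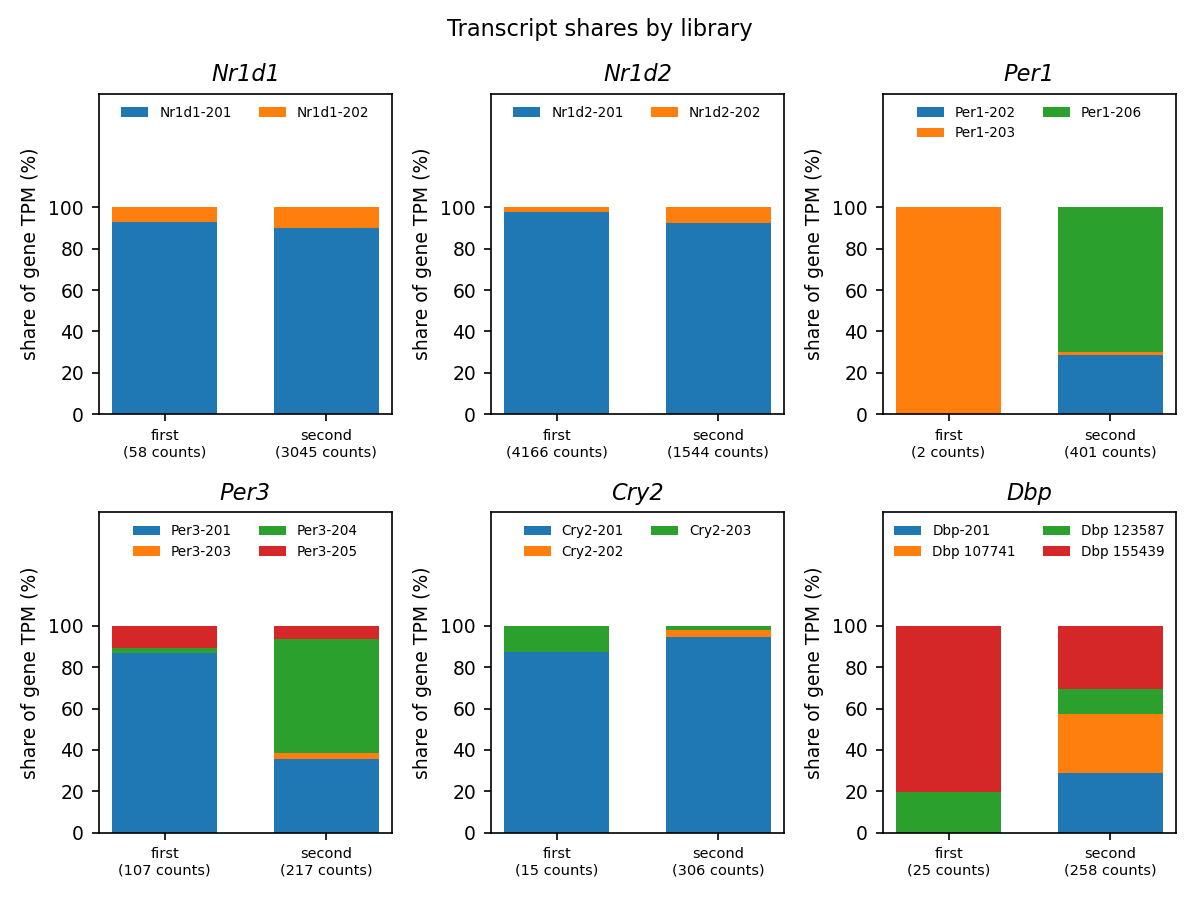
Share of gene TPM held by each transcript of the 6 clock genes with more than 1 expressed transcript, with the gene's counts below each bar. The largest share of Per3 is Per3-201 (86.6%) in the first library and Per3-204 (55.1%) in the second, where their deposited intervals overlap. Dbp transcripts with no name are labelled by the last digits of their Ensembl identifier.

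Several clock genes share exonic bases with a gene on the opposite strand. Nr1d1 overlaps Thra, the thyroid hormone receptor alpha gene, over 263 of its 3077 exonic bases (8.55%). Thra had 55 and 2412 counts, or 1.00 and 62.5 TPM, so it was low and high in the same libraries as Nr1d1. Dbp overlaps Sphk2, a sphingosine kinase gene, over 539 of 2993 exonic bases (18.0%), and Sphk2 had 34 and 3297 counts. Cry2 overlaps a noncoding gene, D930015M05Rik, over 295 of 6320 exonic bases (4.67%), which had 1 and 0 counts. Per3 lies within Camta1 on the same strand with 0 shared exonic bases. The deposited notes list plus and minus strand tracks, but whether counting used the strand is unstated in the labels and notes used here. Without strand, reads from the shared bases of such a pair cannot be told apart. Thra and Sphk2, like Nr1d1 and Dbp, had whole counts and a posterior standard deviation of 0 in both libraries. Whether reads of these pairs were mixed was not tested.

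The other clock genes described here number 20, of which 18 had enough counts to test. Of these, 7 were called higher in the second library, 5 higher in the first and 6 neither, beside the background of 39.2% and 29.2%. Their median log2 ratio was 0.29. With the GC trend removed, 1 was called higher in the second library (Csnk1d) and 6 higher in the first, with a median of -0.34 (17.5% and 17.6% of all genes). With the leading transcript's GC, 1 was called higher in the second (Bhlhe40) and 2 higher in the first (Tef and Wee1). The shares over all genes were then 14.9% and 13.6%. Rorb, at 2 and 1 counts, and Ciart, at 1 and 8 counts, were too low to test.

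Among activator partners, Npas2, which can stand in for CLOCK, had 400 and 996 counts, or 3.34 and 15.6 TPM, and a log2 ratio of 0.60, below 2-fold. Of the ROR receptors, which compete with the REV-ERBs, Rora was called higher in the first library, with 390 and 152 counts and a log2 ratio of -2.07. It stood at -2.17 with the mean GC trend removed but lost its call with the leading transcript's GC, at -0.19. Bhlhe40, a repressor at E-boxes, had 506 and 2142 counts and a log2 ratio of 1.36, and Nfil3, a repressor at D-boxes, had 45 and 307 counts and 2.04, both called higher in the second library. Both turned negative with the mean GC trend removed, at -0.12 and -0.33, while Bhlhe40 stood at 1.23 with the leading transcript's GC. The PAR bZIP factors related to Dbp were Tef, at 344 and 1121 counts with a log2 ratio of 0.99, below 2-fold, and Hlf, at 259 and 170 counts with -1.32, called higher in the first library. Hlf stood at -1.20 with the mean GC trend removed and lost its call with the leading transcript's GC, at -0.25.

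Of the kinases, Csnk1d, which phosphorylates PER proteins, had 451 and 3369 counts and was called higher in the second library, at a log2 ratio of 2.18 and of 1.16 with the mean GC trend removed, but lost its call with the leading transcript's GC, at 0.59. Csnk1e had 90 and 379 counts and a log2 ratio of 1.35, and stood at -2.23 with the mean GC trend removed but at 0.07 with the leading transcript's GC. Gsk3b, with 2709 and 1873 counts and -1.25, was called higher in the first library and stood at 0.00 with the trend removed. Btrc, a ubiquitin ligase part that acts on PER proteins, had 97 and 322 counts and 1.01, near the 2-fold limit, called higher in the second. It lost that call with the mean GC trend removed, at 0.35, and with the leading transcript's GC, at -0.24.

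Among output genes, Nampt, the rate-limiting enzyme of NAD salvage, was the most abundant by count in the first library, with 5580 and 2320 counts and a log2 ratio of -1.98. It stood at 0.08 with the GC trend removed. Wee1, a cell cycle kinase, had 256 and 195 counts and -1.11, and kept that direction at -1.22. Usp2 had 111 and 754 counts and 2.04, and Timeless 22 and 170 counts and 2.20. Both were called higher in the second library and stood at -0.30 and -0.09 with the trend removed. Tsc22d3, a glucocorticoid-induced gene, had 1554 and 1757 counts and -0.54, below 2-fold. Arntl2, Bhlhe41 and Fbxl21, with at most 67 counts in a library, were also not called on TMM-scaled counts. With the mean GC trend removed, Bhlhe41 was called higher in the first library, at -1.09.

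**Figure D5:**
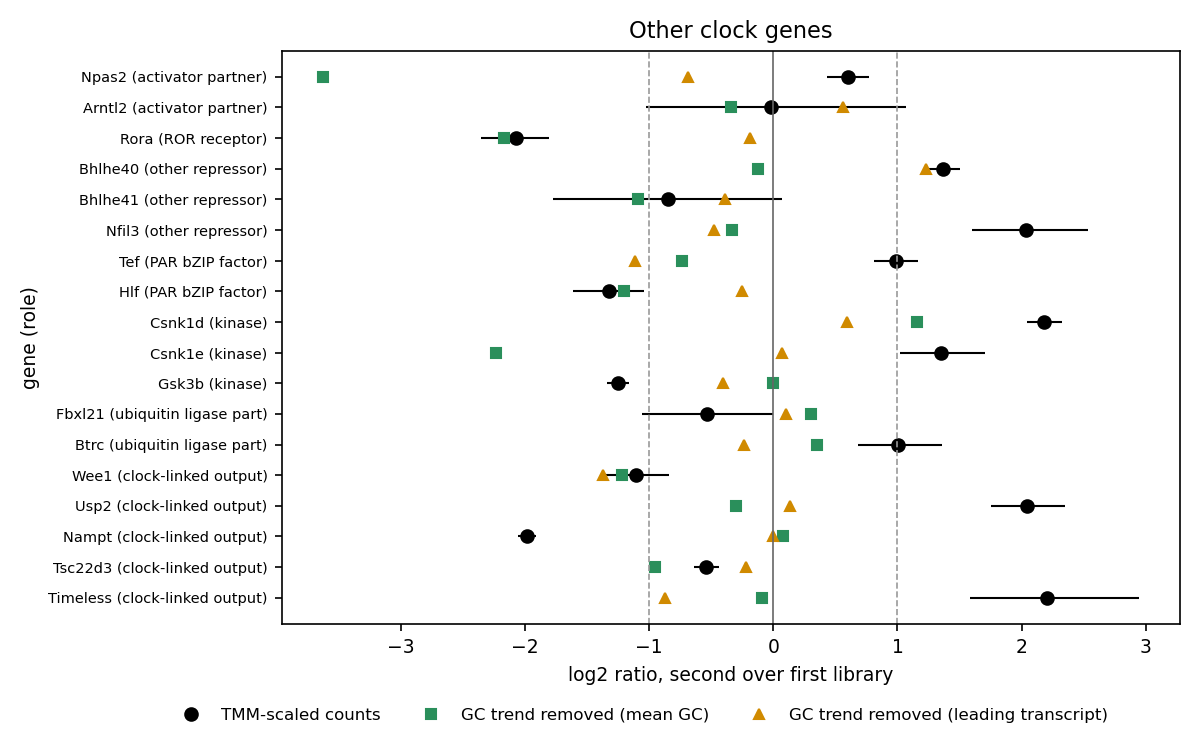
Log2 ratio, second over first library, of the 18 tested other clock genes with exact 95% intervals on TMM-scaled counts (circles), with the GC trend removed by mean GC (squares) or leading-transcript GC (triangles); dashed lines mark 2-fold. Each circle beyond the dashed lines, except that of Wee1, has a square or triangle closer to 0.

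Promoter windows from RefSeq (GRCm38.p6, 250 bases before to 50 after each start) were searched for clock motifs on both strands, since the loop acts through them. The table held 13 windows for 9 of the clock genes, and Per2 was not matched. Arntl had 2 windows, Clock 3 and Per1 2. Clock genes are counted below by gene, with a motif in any window, whereas the background is a share of single windows. The gene counts and that share are therefore unlike measures. The E-box CACGTG, bound by the CLOCK and ARNTL pair, was in the windows of 2 genes, Per1 and Cry1, and in 7.15% of all 32851 windows. The D-box TTATGTAA was in those of Per3 alone, at 2 places, and in 0.938% of all windows. The D-box form TTATGCAA was in Per1 alone and in 0.743%. AGGTCA, the core of ROR and REV-ERB sites, was in those of 4 genes (Arntl, Clock, Nr1d2 and Per1) and in 16.3%, and its part GGTCA in those of 7 genes and in 40.5%. Each sequence below is 30 bases read along the gene, with the motif in capitals.
Per1 E-box, chr11:69098771-69098800, plus strand: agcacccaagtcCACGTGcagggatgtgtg
Cry1 E-box, chr10:85185097-85185126, minus strand: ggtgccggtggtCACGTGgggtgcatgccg
Per1 D-box form, chr11:69098914-69098943, plus strand: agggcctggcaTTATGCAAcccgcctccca
Per3 D-box, chr4:151044852-151044881, minus strand: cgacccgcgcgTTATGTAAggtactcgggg
Per3 D-box, chr4:151044805-151044834, minus strand: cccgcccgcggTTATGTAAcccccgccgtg
Arntl AGGTCA, chr7:113207530-113207559, plus strand: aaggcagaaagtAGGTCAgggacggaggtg
Nr1d2 AGGTCA, chr14:18239166-18239195, minus strand: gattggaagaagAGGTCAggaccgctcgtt

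The Per1 E-box began at -166 and the D-box form at -24 from the start site, and the Cry1 E-box began at -60. The Per3 D-boxes began at -205 and -158. The Arntl AGGTCA began 32 bases after the start, in 1 of its 2 windows, and that of Nr1d2 at -77. Those of Clock, at -119, and Per1, at -137, lie on the opposite strand and are not printed above. No E-box, D-box or AGGTCA was found in the windows of Nr1d1, Cry2 or Dbp, which says only that these letters are not in those windows. A match is a description and not a bound site.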

How the data were processed

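Small intestine poly(A) RNA of 1 mouse was measured in 2 technical libraries. Per the file headers, gene and transcript tables in RSEM form were deposited per library, and notes beside them name mm10 and annotation M4. The aligner and filters were not given in the sources used here. The expected counts were deposited as estimates that need not be whole, and were rounded to whole numbers for the test. TPM and FPKM were computed by the authors per effective length, and isoform shares were deposited as percent of gene TPM. Another 26345 entries without an Ensembl gene identifier were left out. GENCODE M21 gave symbols for 42462 genes and GC content for 42721.

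Genes with 20 or more counts over both libraries were tested with an exact binomial test, using TMM sizes (edgeR 4.0.16). With 1 sample and 2 technical libraries, edgeR's quasi-likelihood test had no residual degrees of freedom. Log2 ratios carry a prior count of 0.5. The GC trend was a lowess fit (span 0.3, statsmodels 0.14.6) without mitochondrial genes and their nuclear copies (BLAST 2.17.0, 95% identity over 100 bases). The script was tested on simulated data. Alternatives were DESeq2 1.42.0 size factors, nuclear total counts, GC trends, count limits, prior counts, TPM and FPKM. With no molecular identifiers, reads may repeat a molecule, so intervals cover counting error only. The members and lists were chosen with earlier results of these data known. By the rule for names, all 10 clock genes were named, with overlapping genes, leading transcripts and other clock genes 2-fold different or at 5 TPM or more; the rest of that list is named only to account for it. Some further clock genes are not reported here.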

Additional observations from a re-analysis of the deposited data

How the results depend on the processing

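No paired analysis was possible because the series holds 1 group with 2 technical libraries of 1 animal. Of the clock genes, 6 reached 1 TPM in both libraries, 8 did so on TPM without mitochondrial genes, and 3 reached 5 TPM in both. With the leading transcript's GC trend removed, clock genes called higher in the second library went from 4 to 1 and in the first from 2 to 4. Other clock genes called higher in the second library went from 7 to 1 under either GC trend. Those called higher in the first went from 5 to 3 with nuclear total counts and to 2 with the leading transcript's GC. The cause was not tested.

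Log2 ratios that changed sign with the mean GC trend removed were Arntl 0.10, Clock 0.11, Per2 -2.79, Per3 -0.89, Dbp -2.97, Npas2 -3.63, Bhlhe40 -0.12, Nfil3 -0.33, Tef -0.74, Csnk1e -2.23, Fbxl21 0.30, Usp2 -0.30, Nampt 0.077 and Timeless -0.088. With the leading transcript's GC they were Clock 0.027, Per2 -1.99, Per3 -1.04, Dbp -3.11, Npas2 -0.69, Arntl2 0.56, Nfil3 -0.48, Tef -1.11, Fbxl21 0.10, Btrc -0.24 and Timeless -0.88. Arntl2, on 14 and 23 counts, stood at 0.27 with nuclear total counts and 0.064 with no count filter. Nuclear total counts moved the median log2 ratio of all genes from 0.18 to 0.47. Depth limits Per1, Cry2 and Dbp most, at 2, 15 and 25 counts in the first library.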
